A study of Mus musculus with 12 samples.

Results

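A set of 7 genes that control how long AU-rich messenger RNAs last were followed in mouse kidneys after ischemia and reperfusion: Zfp36, Zfp36l1, Zfp36l2, Zc3h12a, Elavl1, Hnrnpd and Btg1. They were chosen by name and function with earlier results of these arrays known, and a probe set (the group of short probes that reports on 1 transcript) was taken as theirs where the platform annotation named 1 of them and no other gene. That gave 7 of the 14322 genes measured, with 20 of the 45037 probe sets other than controls. Of the 20 probe sets, 16 were bright enough to be tested and 4 were not.

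RNA came from whole kidneys of 8-week-old male mice in 4 groups of 3, each kidney on an array of its own. The groups were TLR4 null ischemic, TLR4 null sham, wild type ischemic and wild type sham. TLR4 null mice were C57BL/10ScNJ, a substrain without Toll-like receptor 4 (a receptor of innate immunity), and wild type mice were C57BL/10, so the receptor and any other difference between the substrains cannot be told apart. All 12 mice, shams included, had lost the right kidney. In the ischemic groups the vessels of the left kidney were clamped for 23 min and the kidney was taken after 4 h of reperfusion, and in the sham groups the clip was laid beneath the vessels without closing it. Arrays of one group are labelled as biological replicates, and with 3 of them the precision of each value is limited.

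Many transcripts of cytokines, chemokines and early growth genes carry AU-rich elements in the 3′ untranslated region, and these elements make them short-lived. The tristetraprolin family (Zfp36, Zfp36l1, Zfp36l2) binds the elements through CCCH zinc fingers and brings in the CCR4-NOT deadenylase, which shortens the poly(A) tail and starts decay. Zc3h12a encodes Regnase-1, an endoribonuclease that cuts stem-loops in the untranslated regions of inflammatory transcripts. Elavl1 encodes HuR, which binds U-rich and AU-rich stretches and mostly protects the transcript, Hnrnpd encodes AUF1, whose isoforms can speed or slow decay, and Btg1 encodes an adapter that binds the catalytic subunits of the deadenylase. In the kidney, HuR has been studied in tubule cells under ischemic stress. An array reads the level of each transcript, so protein, phosphorylation and decay rates were not measured.

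The sequences upstream of 3 genes are shown, picked from the genes that rose after ischemia because their windows hold motif matches. Each is the 250 bases before the RefSeq start of the gene on GRCm38.p6, printed 5′ to 3′ on the strand of the gene, with motif matches in capitals. The Zfp36 window lies at chr7:28379229-28379478 on the minus strand, the Zfp36l1 window at chr12:80113014-80113263 on the minus strand, and the Btg1 window at chr10:96616751-96617000 on the plus strand.
Zfp36: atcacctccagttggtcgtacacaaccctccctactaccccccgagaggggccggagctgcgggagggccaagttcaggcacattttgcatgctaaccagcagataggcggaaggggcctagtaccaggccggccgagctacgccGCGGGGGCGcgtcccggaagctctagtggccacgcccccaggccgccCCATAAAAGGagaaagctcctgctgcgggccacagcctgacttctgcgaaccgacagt
Zfp36l1: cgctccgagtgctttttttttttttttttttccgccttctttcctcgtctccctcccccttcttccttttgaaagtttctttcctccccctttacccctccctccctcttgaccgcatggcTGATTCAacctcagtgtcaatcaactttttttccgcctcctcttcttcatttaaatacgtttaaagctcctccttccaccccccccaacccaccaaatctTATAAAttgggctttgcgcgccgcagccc
Btg1: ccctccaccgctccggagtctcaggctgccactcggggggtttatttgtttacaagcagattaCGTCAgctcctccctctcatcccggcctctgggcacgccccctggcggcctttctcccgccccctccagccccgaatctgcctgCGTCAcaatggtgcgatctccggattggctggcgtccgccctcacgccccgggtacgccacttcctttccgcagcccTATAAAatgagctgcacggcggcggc

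The capitals in the Zfp36 window mark the EGR motif GCGGGGGCG, beginning 105 bases before the start, and a CArG box (the motif bound by serum response factor), beginning 58 bases before it. Those in the Zfp36l1 window mark the AP-1 motif TGANTCA, beginning 129 bases before the start, and the TATA motif TATAAA, beginning 29 bases before it. Those in the Btg1 window mark TGACG, the core of the CRE (the cyclic AMP response element), read on the opposite strand and beginning 187 and 103 bases before the start, and a TATA motif beginning 26 bases before it. Both strands were searched for 8 motifs, and the other 3 were the full CRE TGACGTCA, which contains that core, the kappaB motif and the heat shock element core GAANNTTC. RefSeq windows were held for 6 of the 7 genes (not for Zfp36l2), and those of Zc3h12a, Elavl1 and Hnrnpd held none of the 8, although Elavl1 and Hnrnpd also rose. Of 32851 windows of this length, 1.47% held a CArG box, 2.57% the EGR motif, 6.75% the AP-1 motif, 1.55% the full CRE, 17.8% its core, 7.25% the kappaB motif, 6.69% the heat shock core and 12.4% the TATA motif. The share of windows holding any of the 8 was not counted. A match describes the letters in the window and was not tested as a binding site.

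Signals are MAS5 intensities on a linear scale, and median signals per array ran from 61.2 to 77.4. Tlr4 itself, read by the probe set 1418162_at, gave 0.901 to 3.38 on the 6 TLR4 null arrays and 65.6 to 120.4 on the 6 wild type arrays, and a second one, 1418163_at, gave 6.33 to 60.4 on the TLR4 null arrays and 72.9 to 134.8 on the wild type arrays. The Tlr4 probe sets 1430695_at and 1442827_at were too dim to be tested, and the genotypes overlapped on both. On the TLR4 null arrays they gave 1.16 to 18.6 and 6.79 to 32.2. On the wild type arrays they gave 0.880 to 14.6 and 9.63 to 41.4. Whether any of these probe sets lies in the deleted stretch was not determined here. Correlations of log2 values across genes were 0.963 to 0.979 within groups and 0.933 to 0.976 between groups. The summed signal of 10 neutrophil markers was 776 to 1205 in TLR4 null ischemic, 515 to 866 in TLR4 null sham, 1154 to 1685 in wild type ischemic and 733 to 960 in wild type sham kidneys. In each genotype 2 of the 8 tested (S100a8 and S100a9) rose. The 12 monocyte and macrophage markers summed to 2388 to 2659, 2633 to 2929, 2840 to 2967 and 3168 to 3357 in the same order of groups. Of the 10 of them tested, 1 rose in each genotype, and 2 fell in TLR4 null and 1 in wild type kidneys. Such a sum weighs the brightest markers most. The 11 kidney epithelial markers summed to 76927 to 88472, 86308 to 93957, 76429 to 89230 and 75047 to 91333 in that order, with 3 of the 11 falling in each genotype. None of the markers with a probe set was at 0 on all 12 arrays, which does not show detection, as some were too dim to be tested. In whole kidneys, fewer cells of a type and less RNA per cell cannot be told apart.

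Ischemia raised 5 of the 7 regulators in TLR4 null kidneys and the same 5 in wild type kidneys, and lowered none. They were Zfp36, Zfp36l1, Elavl1, Hnrnpd and Btg1, while Zfp36l2 and Zc3h12a did not pass the test in either genotype. For comparison, 9.86% of all genes tested rose and 11.7% fell in TLR4 null kidneys, and 9.17% rose and 10.5% fell in wild type kidneys (limma, adjusted p under 0.05). Ischemic arrays lay wholly above sham arrays for the same 5 genes in each genotype, as they did for 13.9% of all genes in TLR4 null and 15.6% in wild type kidneys. The median difference over the 7 genes was 0.42 in TLR4 null and 0.61 in wild type kidneys, on the scale of log2(signal + 15), beside medians of -0.07 and -0.09 over all 14322 genes. Differences on this scale understate the folds of dim genes.

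**Figure D1:**
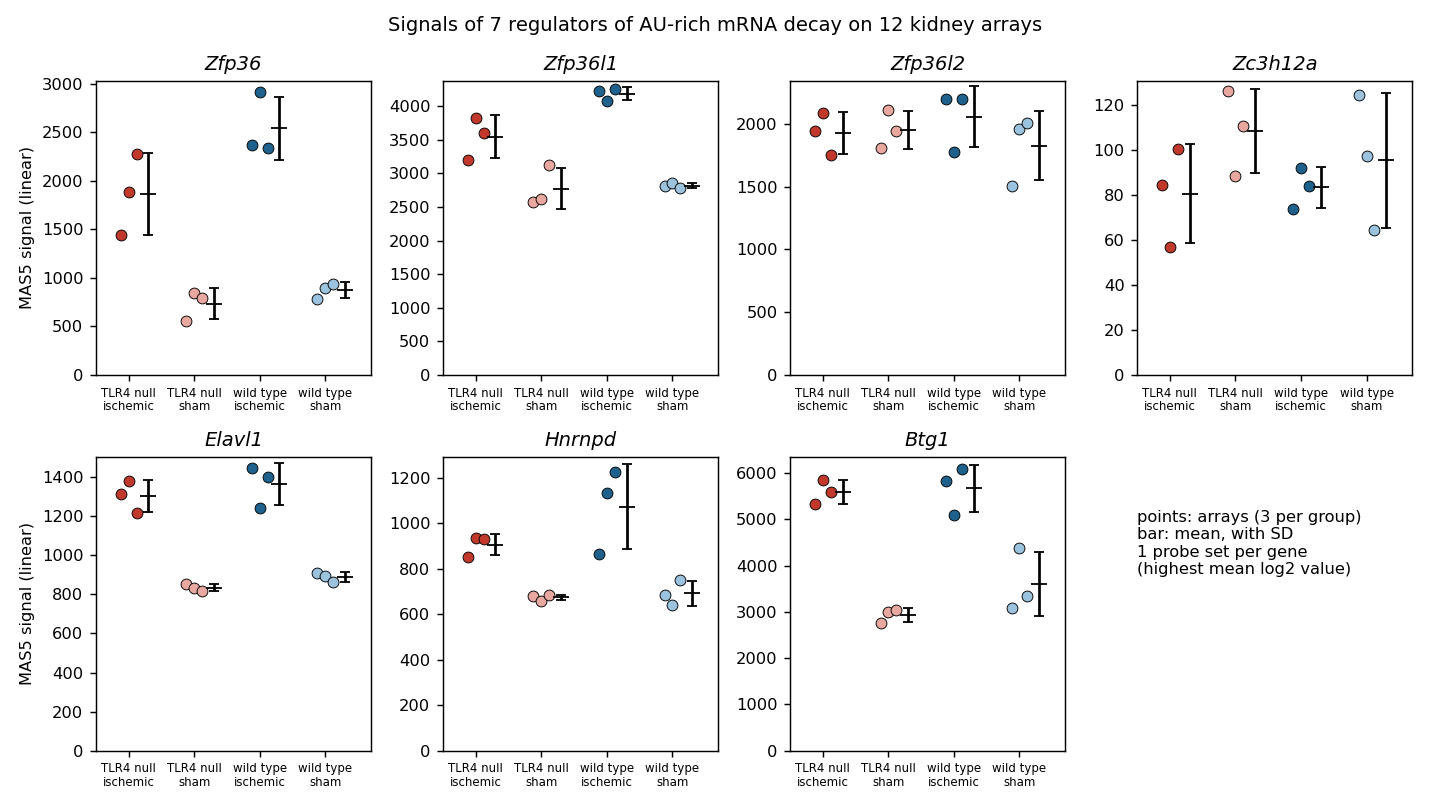
MAS5 signal (linear axis from 0, a scale of its own for each gene) of the probe set that stands for each of the 7 genes, with 1 point per array and the mean and SD of 3 arrays in TLR4 null ischemic, TLR4 null sham, wild type ischemic and wild type sham kidneys. All ischemic points lie above all sham points of the same genotype for Zfp36, Zfp36l1, Elavl1, Hnrnpd and Btg1, and the points of Zfp36l2 and Zc3h12a overlap.

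Zfp36, which encodes tristetraprolin itself, had the largest response of the 7. Its single probe set, 1452519_a_at, gave 1437, 1880.35 and 2279 in TLR4 null ischemic kidneys, against 550.2, 848 and 795 in TLR4 null sham kidneys. In wild type it gave 2372, 2909 and 2334 in ischemic kidneys, against 784, 897 and 939.9 in sham kidneys. Every ischemic array was above every sham array, and the 3 TLR4 null ischemic arrays were below the 3 wild type ischemic arrays. The rise was 1.33 ± 0.17 log2 units (SE, 2.52-fold) in TLR4 null kidneys, with an adjusted p of 5.17e-05 by limma. In wild type kidneys it was 1.52 ± 0.17 (2.87-fold, adjusted p = 1.46e-05). Of all genes tested, 1.44% rose at least as much in TLR4 null kidneys and 1.08% in wild type kidneys. The level was highest in wild type ischemic kidneys, then in TLR4 null ischemic, wild type sham and TLR4 null sham kidneys, and of these neighbours only the 2 sham groups overlapped.

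Zfp36l1, a paralogue that binds the same elements, rose on both of its probe sets in both genotypes. The probe set 1450644_at gave 3198, 3829.8 and 3608 in TLR4 null ischemic kidneys, against 2581, 2625 and 3122 in TLR4 null sham kidneys. It gave 4230.4, 4073 and 4257 in wild type ischemic kidneys, against 2807, 2854 and 2781 in wild type sham kidneys. Wild type ischemic kidneys were highest with no overlap, TLR4 null ischemic kidneys followed, and the 2 sham groups overlapped. The rise was 0.35 ± 0.09 (1.28-fold, limma adjusted p = 0.00926) in TLR4 null and 0.57 ± 0.09 (1.49-fold, adjusted p = 0.000277) in wild type kidneys, and with each array scaled to the same median the TLR4 null value was 0.37 with an adjusted p of 0.0535.

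The second Zfp36l1 probe set, 1422528_a_at, was designed on the same transcript record and gave 589.5, 550.3 and 492 in TLR4 null ischemic kidneys, against 238, 244 and 283 in TLR4 null sham kidneys. In wild type it gave 564, 586 and 638 in ischemic kidneys, against 292, 316 and 331 in sham kidneys. Every TLR4 null sham array was below every wild type sham array there, and the ischemic groups overlapped. The rise was 1.05 ± 0.11 in TLR4 null kidneys (adjusted p = 1.16e-05 in limma's fit of all probe sets) and 0.90 ± 0.11 in wild type kidneys (adjusted p = 5.06e-05). The gene's 2 probe sets thus gave TLR4 null values 0.35 and 1.05, and their mean, taken as the gene, gave 0.70.

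Zfp36l2, the third member of the family, showed no change past the test. Its bright probe set, 1437626_at, gave 1944, 2085 and 1754 in TLR4 null ischemic kidneys, against 1806, 2109.5 and 1942 in TLR4 null sham kidneys. In wild type it gave 2199.9, 1775 and 2198 in ischemic kidneys, against 1508, 1962 and 2007 in sham kidneys. All 4 groups overlapped, so their means have no order beyond the spread. The difference was -0.02 (95% confidence interval -0.27 to 0.24, limma adjusted p = 0.936) in TLR4 null kidneys and 0.18 (-0.08 to 0.43, adjusted p = 0.347) in wild type kidneys. The probe set 1451034_at was dim, with signals from 17.9 to 118, and was called in neither genotype, and 1439054_at was under the filter.

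Zc3h12a, the gene of the endoribonuclease Regnase-1, was read by 2 dim probe sets whose differences had opposite signs, none of them past the test. The one with the higher mean, 1443993_at, gave 84.3, 56.8 and 100.1 in TLR4 null ischemic kidneys, against 126, 88.5 and 110.3 in TLR4 null sham kidneys. It gave 73.8, 92.0 and 83.9 in wild type ischemic kidneys, against 124, 97.3 and 64.3 in wild type sham kidneys. All 4 groups overlapped, and the differences were -0.38 ± 0.24 (limma adjusted p = 0.301) in TLR4 null and -0.13 ± 0.24 (adjusted p = 0.755) in wild type kidneys.

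The other Zc3h12a probe set, 1427348_at, gave 64.7, 75.2 and 42.8 in TLR4 null ischemic kidneys, against 26.8, 29.1 and 46.9 in TLR4 null sham kidneys. In wild type it gave 83.8, 87.9 and 73.1 in ischemic kidneys, against 35.3, 33.1 and 53.2 in sham kidneys. Ischemic and sham arrays overlapped in TLR4 null kidneys and not in wild type kidneys. The differences were 0.62 ± 0.27 (adjusted p = 0.134) and 0.81 ± 0.27 (adjusted p = 0.0513) in TLR4 null and wild type kidneys, in limma's fit of all probe sets. It exceeded the filter level on 5 ischemic and 2 sham arrays, so it was tested only through the ischemic groups, where it was higher, and its test supports no call. Of the 2, the annotation gives a transcript record for 1427348_at, and which of them reports the Zc3h12a transcript was not determined.

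**Figure D2:**
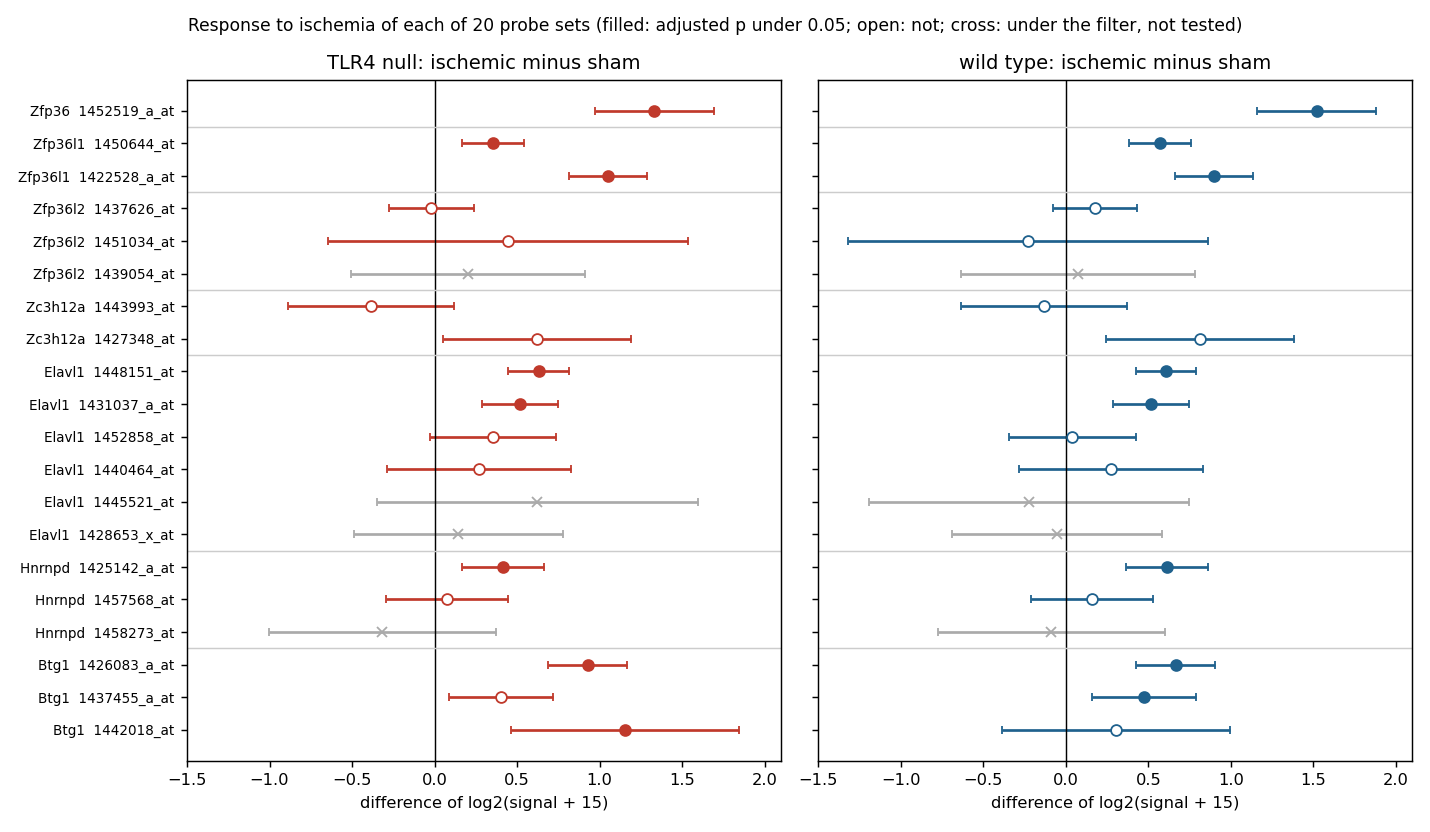
Difference of log2(signal + 15), ischemic minus sham, for each of the 20 probe sets in TLR4 null (left) and wild type (right) kidneys, with 95% confidence intervals from limma's fit of all probe sets. Filled points had an adjusted p under 0.05, open points did not, and the 4 crosses were under the filter and were not tested; 8 of the 16 tested are filled on each side, and the Zc3h12a pair lies on opposite sides of 0.

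Over all 16 tested probe sets, 8 rose and none fell in each genotype. In the same fit 8.49% of 30326 probe sets rose and 8.23% fell in TLR4 null kidneys, and 7.71% rose and 7.91% fell in wild type kidneys. Of the 8 probe sets, 7 were shared by the genotypes, and the remaining one belonged to Btg1 on each side. In TLR4 null kidneys the count was 5 without TLR4 null ischemic replicate 2 and 5 without TLR4 null sham replicate 1.

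Elavl1, the gene of the stabilising protein HuR, rose to nearly the same extent in both genotypes. Its brightest probe set, 1448151_at, gave 1314, 1379.8 and 1217 in TLR4 null ischemic kidneys, against 856, 834 and 816 in TLR4 null sham kidneys. It gave 1448, 1242 and 1403 in wild type ischemic kidneys, against 910.1, 893 and 863 in wild type sham kidneys. The 2 ischemic groups overlapped, and each stood clear of its sham group. The rise was 0.63 ± 0.08 (1.55-fold, limma adjusted p = 8.22e-05) in TLR4 null and 0.61 ± 0.08 (1.52-fold, adjusted p = 0.000118) in wild type kidneys.

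A second Elavl1 probe set, 1431037_a_at, rose by 0.52 in both genotypes (adjusted p = 0.00362 in TLR4 null and 0.00389 in wild type kidneys). The dimmer 1452858_at differed by 0.36 in TLR4 null kidneys (adjusted p = 0.211) and by 0.04 in wild type kidneys (adjusted p = 0.920), and 1440464_at by 0.27 in both (adjusted p = 0.559 and 0.558), none of them called. Both remaining probe sets, 1445521_at and 1428653_x_at, were under the filter. With the mean of its tested probe sets as the gene, the Elavl1 rise was 0.44 in TLR4 null kidneys (adjusted p = 0.00968) and 0.36 in wild type kidneys (adjusted p = 0.0317).

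Hnrnpd, the gene of AUF1, rose modestly. Its bright probe set, 1425142_a_at, gave 851, 935 and 929 in TLR4 null ischemic kidneys, against 678, 659.5 and 683 in TLR4 null sham kidneys. It gave 863, 1133 and 1224 in wild type ischemic kidneys, against 683, 641 and 751 in wild type sham kidneys. The ischemic groups overlapped each other and the sham groups overlapped each other, with no overlap between surgeries. The rise was 0.42 ± 0.12 (1.34-fold, limma adjusted p = 0.0170) in TLR4 null and 0.61 ± 0.12 (1.53-fold, adjusted p = 0.00151) in wild type kidneys. In TLR4 null kidneys the call was lost without TLR4 null sham replicate 2, at 0.40 with an adjusted p of 0.0538. Its second probe set, 1457568_at, differed by 0.07 and 0.16 with no call in either genotype, and with the mean of both as the gene the values were 0.25 (adjusted p = 0.161) in TLR4 null and 0.38 (adjusted p = 0.0309) in wild type kidneys. The last one, 1458273_at, was under the filter.

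Btg1, the adapter of the deadenylase, had the second largest response of the 7 in both genotypes when each gene is read by its brightest probe set. In wild type kidneys that rank lies within the errors, beside Hnrnpd (0.61 ± 0.12), Elavl1 (0.61 ± 0.08) and Zfp36l1 (0.57 ± 0.09). With the mean of the probe sets, Btg1 rose by 0.48 and Zfp36l1 by 0.73 in wild type kidneys. The probe set 1426083_a_at gave 5334, 5844 and 5593 in TLR4 null ischemic kidneys, against 2758.5, 2994 and 3042 in TLR4 null sham kidneys. It gave 5834, 5101 and 6078 in wild type ischemic kidneys, against 3081, 4384 and 3348 in wild type sham kidneys. The ischemic groups overlapped, and the 3 TLR4 null sham arrays were below the 3 wild type sham arrays. The rise was 0.93 ± 0.11 (1.90-fold, limma adjusted p = 3.36e-05) in TLR4 null and 0.66 ± 0.11 (1.58-fold, adjusted p = 0.000633) in wild type kidneys.

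The other Btg1 probe sets split by genotype in which of them passed. For 1437455_a_at the difference was 0.40 in TLR4 null kidneys (adjusted p = 0.0789) and it rose by 0.47 in wild type kidneys (adjusted p = 0.0415). The dim 1442018_at rose by 1.16 ± 0.32 in TLR4 null kidneys (adjusted p = 0.0228) and differed by 0.30 in wild type kidneys (adjusted p = 0.603). It gave 76.3, 105.8 and 102.4 in TLR4 null ischemic kidneys, against 10.7, 59.2 and 46.3 in TLR4 null sham kidneys. TLR4 null sham replicate 1, at 10.7, was far below the others, and the size of that rise leans on it. The difference between those responses was -0.07 for 1437455_a_at (adjusted p = 0.979) and 0.85 for 1442018_at (95% confidence interval -0.13 to 1.83, adjusted p = 0.837), so neither was called as differing between the genotypes.

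None of the 7 genes was called as responding differently in TLR4 null and wild type kidneys. The difference of the responses, TLR4 null minus wild type, was -0.22 for Zfp36l1 (95% confidence interval -0.48 to 0.05, limma adjusted p = 0.833) and 0.26 for Btg1 (-0.07 to 0.60, adjusted p = 0.833). The second Zfp36l1 probe set gave a difference of the opposite sign, 0.15 (-0.18 to 0.49, adjusted p = 0.924 in the fit of all probe sets), and the mean of both gave -0.032. For Zfp36 it was -0.19 (-0.70 to 0.32, adjusted p = 0.933), for Hnrnpd -0.19 (-0.54 to 0.15), for Zfp36l2 -0.20 (-0.56 to 0.16), for Zc3h12a -0.25 (-0.98 to 0.48) and for Elavl1 0.02 (-0.23 to 0.28). Over all 14322 genes 0 passed limma's test (15 without TLR4 null ischemic replicate 3), 913 genes had an unadjusted p under 0.05, and 0 of the 7 were among them. The narrowest interval was that of Elavl1, and the widest, that of Zc3h12a, leaves room for nearly 1 log2 unit in the negative direction.

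**Figure D3:**
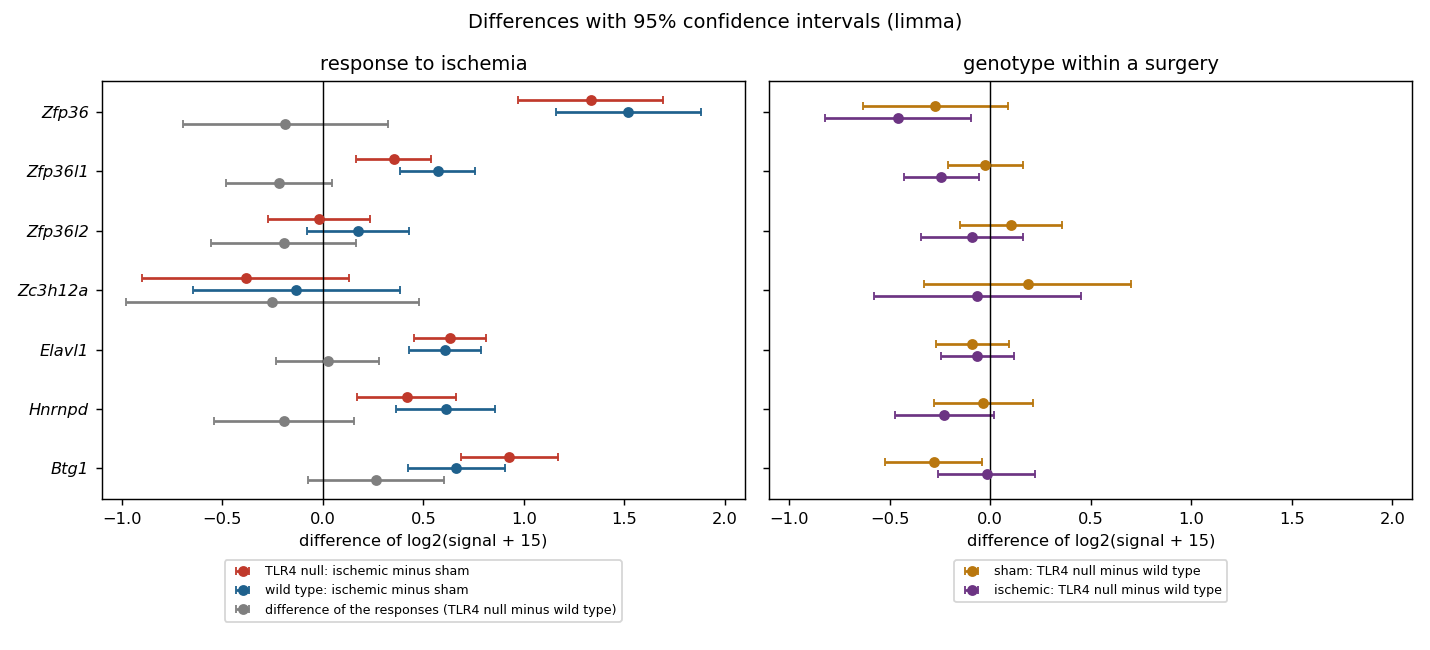
Differences of log2(signal + 15) for the 7 genes with 95% confidence intervals from limma. Left, ischemic minus sham in TLR4 null and in wild type kidneys and the difference of these responses; right, TLR4 null minus wild type for sham and for ischemic kidneys. The intervals of the responses lie above 0 for 5 genes, all intervals for the difference of the responses include 0, and those of the genotype differences exclude 0 for Zfp36 and Zfp36l1 in ischemic and for Btg1 in sham kidneys, where none passed adjustment over all genes.

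Between the genotypes, none of the 7 was called in ischemic kidneys, where limma called 94 of 14322 genes (0.656%), and none in sham kidneys, where it called 45 (0.314%). These all-gene counts depend on single arrays: the ischemic count was 10 without wild type ischemic replicate 3 and 245 without TLR4 null ischemic replicate 3, and the sham count ran from 2 without wild type sham replicate 1 to 61 without TLR4 null ischemic replicate 2. They also depend on the settings. The ischemic count was 14 with a score of fat markers as a covariate and 119 with the filter at the 60th percentile. The sham count was 4 with eBayes without the trend and 81 with only the groups compared. In ischemic kidneys the TLR4 null mean was below the wild type mean for all 7 genes, as for 49.0% of all genes. The difference was small for Btg1 (-0.02), Elavl1 (-0.06) and Zc3h12a (-0.07). With the mean of the probe sets as the gene, Zfp36l2 (0.20) and Btg1 (0.048) stood above wild type instead. Of the 7 genes, 2 had an unadjusted p under 0.05, as had 11.4% of all genes. These were Zfp36, at -0.46 (95% confidence interval -0.82 to -0.10, adjusted p = 0.288), and Zfp36l1, at -0.24 (-0.43 to -0.06, adjusted p = 0.280). Without 1 array the Zfp36 value ran from -0.61 (without TLR4 null ischemic replicate 3) to -0.28 (without TLR4 null ischemic replicate 1), and the second Zfp36l1 probe set gave -0.13 with overlapping groups. They were also the 2 whose TLR4 null arrays all lay below the wild type arrays, a pattern that 7.63% of all genes showed. In sham kidneys 1 gene, Btg1, had an unadjusted p under 0.05, at -0.28 (-0.52 to -0.04, adjusted p = 0.417), beside 9.35% of all genes. Without wild type sham replicate 2 the Btg1 value was -0.13, and without wild type sham replicate 1 it was -0.39. The second Zfp36l1 probe set also stood at -0.28 in sham kidneys (unadjusted p = 0.0218, adjusted p = 0.469). Btg1 and Elavl1 (-0.09, adjusted p = 0.844) had TLR4 null sham arrays all below the wild type sham arrays, as did 8.63% of all genes.

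Of the 8 neutrophil markers tested, none was called between the genotypes in ischemic kidneys. Their median TLR4 null minus wild type difference was 0.14, with higher TLR4 null means for 5 and lower ones for S100a8, S100a9 and Mmp8. That median weighs dim and bright markers alike. Among the 5, Elane (16.8 to 20.7) and Ltf (10.7 to 18.6) were dim in wild type ischemic kidneys, where median signals per array were 66.1 to 69.5. Of the 10 monocyte and macrophage markers tested, 1 was called between the genotypes in ischemic kidneys. It was C1qa, a complement subunit made by macrophages, which was lower in TLR4 null kidneys by limma (-0.64, adjusted p = 0.0343). Of those 10, 8 had lower TLR4 null means, 4 had an unadjusted p under 0.05, and the list median was -0.31. In sham kidneys 9 of the 10 had lower TLR4 null means (list median -0.24), and 1 had an unadjusted p under 0.05. Among the 8 neutrophil markers 6 were lower there (list median -0.18), and 2 had an unadjusted p under 0.05, both lower. None of either list was called in sham kidneys. S100a8, a neutrophil transcript, ran from 193 to 299 in TLR4 null ischemic and from 422 to 669 in wild type ischemic kidneys, a difference of -0.93 (adjusted p = 0.0560). It was lower in TLR4 null sham kidneys too, from 110 to 124 beside 142 to 241 in wild type sham kidneys. The 5 fat markers summed to 2383 to 9030 in TLR4 null ischemic, 2901 to 5542 in TLR4 null sham, 4377 to 12809 in wild type ischemic and 5278 to 9010 in wild type sham kidneys, and the median TLR4 null minus wild type difference of the 4 tested was -1.13 in ischemic and -0.88 in sham kidneys, with none called. With the fat score of each array as a covariate, an alternative added after the data were seen, the Zfp36 difference in ischemic kidneys was -0.64 (adjusted p = 0.191) and the Zfp36l1 difference -0.27 (adjusted p = 0.397). The part of neutrophils and macrophages was not tested.

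The deadenylases, adapters and nucleases that carry out decay were counted beside the all-gene shares given above. Of 14 measured deadenylase genes none was called in either genotype by limma, with 1 under an unadjusted p of 0.05 in TLR4 null and 3 in wild type kidneys (33.1% and 31.5% of all genes), and the list medians were -0.04 and -0.10. Of 4 measured BTG and Tob adapters besides Btg1, 1 rose in each genotype, Btg2. Btg2, an early-response and p53-induced adapter, gave 1386, 1652 and 2749.6 in TLR4 null ischemic kidneys, against 520.4, 448 and 519 in TLR4 null sham kidneys. In wild type it gave 1979.6, 2266 and 1799 in ischemic kidneys, against 455, 631 and 632 in sham kidneys. Its ischemic arrays were all above its sham arrays, and the rise was 1.87 ± 0.20 (limma adjusted p = 8.96e-06) in TLR4 null and 1.80 ± 0.20 (adjusted p = 1.20e-05) in wild type kidneys.

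Among 17 genes of decapping and 5′ to 3′ decay, 2 rose and 2 fell in TLR4 null kidneys and 2 rose and 2 fell in wild type kidneys, with list medians of 0.02 and -0.01. These counts lie near the shares of all genes, of which 9.86% rose and 11.7% fell in TLR4 null and 9.17% rose and 10.5% fell in wild type kidneys. Patl1, a scaffold that links deadenylation to decapping, differed by 0.38 in TLR4 null kidneys (limma adjusted p = 0.0860) and rose by 0.78 in wild type kidneys (adjusted p = 0.00165). Edc3, an enhancer of decapping, differed by 0.02 in TLR4 null kidneys (adjusted p = 0.934) and fell by 0.40 in wild type kidneys (adjusted p = 0.0357). Eif4enif1, which binds the cap-binding protein eIF4E, differed by 0.03 in TLR4 null kidneys (adjusted p = 0.904) and rose by 0.39 in wild type kidneys (adjusted p = 0.0364). For these 3 genes the difference between the genotypes' responses was -0.40, 0.42 and -0.36, with adjusted p values of 0.812, 0.722 and 0.783. The 4 genes called in TLR4 null kidneys, named here after their values were seen, were Lsm14a (0.63, limma adjusted p = 0.00293), Lsm2 (0.68, adjusted p = 0.0293), Lsm6 (-0.61, adjusted p = 0.00218) and the decapping enzyme Dcp2 (-0.31, adjusted p = 0.0342). In wild type kidneys these 4 differed by 0.25, 0.25, -0.35 and -0.22 without a call, and none of the differences between the responses was called either. Of 14 genes of the exosome and the SKI complex, which degrade from the 3′ end, 1 rose in each genotype, the exosome nuclease Dis3 at 0.47 in TLR4 null (adjusted p = 0.0109) and 0.41 in wild type kidneys (adjusted p = 0.0246), and the list medians were 0.03 and -0.09.

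Of 24 other proteins that bind 3′ untranslated regions, 6 rose and 1 fell in TLR4 null kidneys and 8 rose and 2 fell in wild type kidneys, with list medians of 0.05 and 0.13. Hnrnpdl, a close relative of AUF1, rose by 1.05 ± 0.10 in TLR4 null kidneys (limma adjusted p = 5.08e-06) and by 1.13 ± 0.10 in wild type kidneys (adjusted p = 2.67e-06). Ptbp1, a splicing regulator that also binds pyrimidine-rich untranslated regions, rose by 0.79 ± 0.09 (adjusted p = 1.15e-05) and 1.04 ± 0.09 (adjusted p = 8.99e-07) in TLR4 null and wild type kidneys. Hnrnpa1, an hnRNP of splicing and export, rose by 0.51 ± 0.09 (adjusted p = 0.000767) and 0.68 ± 0.09 (adjusted p = 7.46e-05).

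The p38 and MK2 kinases phosphorylate tristetraprolin and thereby hold back its decay activity. Of 17 measured genes of that pathway, 6 rose and 1 fell in TLR4 null kidneys and 7 rose and 1 fell in wild type kidneys, with list medians of 0.01 and 0.31. Map2k3, a kinase that activates p38, rose by 1.29 ± 0.07 in TLR4 null kidneys (limma adjusted p = 2.56e-08) and by 1.42 ± 0.07 in wild type kidneys (adjusted p = 9.68e-09). Ppp2cb, a catalytic subunit of the phosphatase PP2A, which can remove the phosphate from tristetraprolin, rose by 0.74 ± 0.09 (adjusted p = 2.43e-05) in TLR4 null and 0.67 ± 0.09 (adjusted p = 6.19e-05) in wild type kidneys.

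Mapkapk2, which encodes MK2, gave 371, 493 and 527 in TLR4 null ischemic kidneys, against 339.5, 358 and 361 in TLR4 null sham kidneys. It gave 524, 602 and 578 in wild type ischemic kidneys, against 264, 249 and 288 in wild type sham kidneys. The TLR4 null sham arrays were all above the wild type sham arrays, and the ischemic groups overlapped. It rose by 0.37 ± 0.13 (limma adjusted p = 0.0499) in TLR4 null and by 1.05 ± 0.13 (adjusted p = 2.97e-05) in wild type kidneys, and the difference of the responses was -0.68 (95% confidence interval -1.06 to -0.30), which did not pass adjustment over all genes (adjusted p = 0.474).

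**Figure D4:**
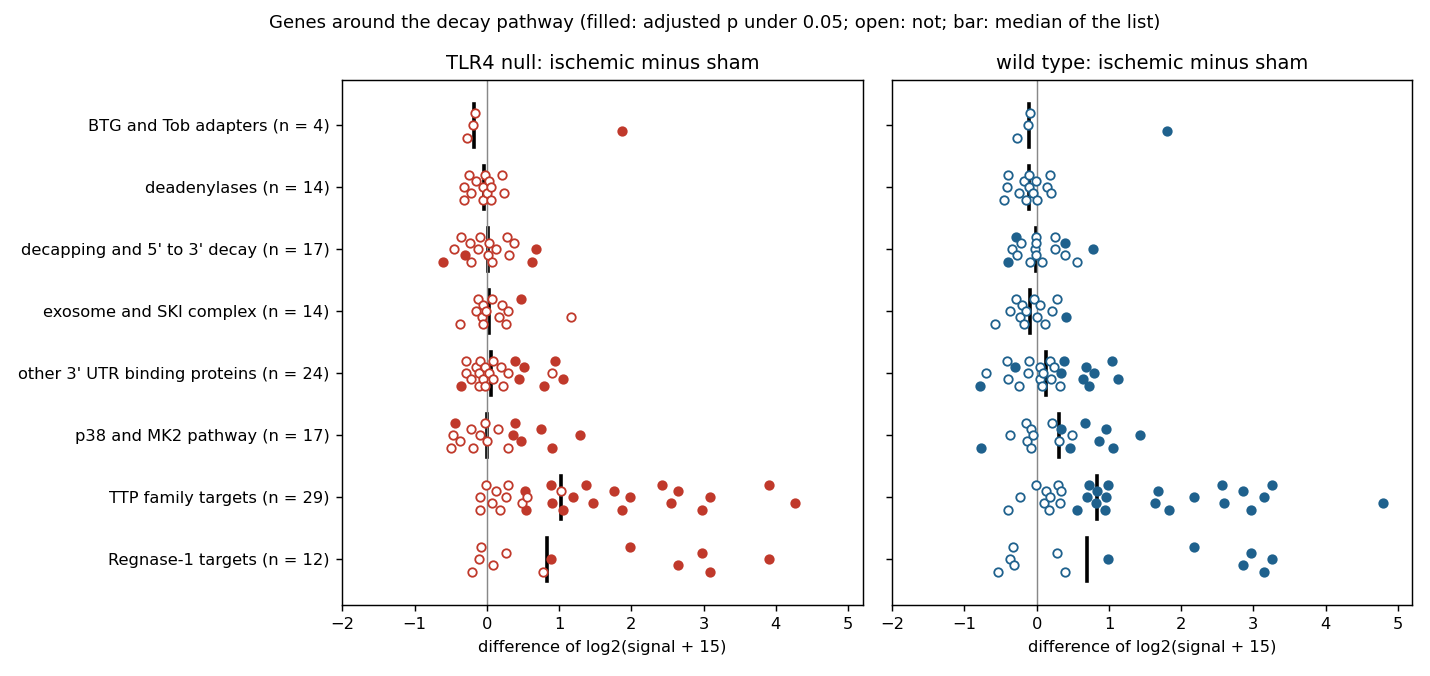
Difference of log2(signal + 15), ischemic minus sham, for each measured gene of 8 lists around the decay pathway in TLR4 null (left) and wild type (right) kidneys; filled points had a limma adjusted p under 0.05 and a vertical bar marks the median of the list. The deadenylases hold no filled point on either side, and the filled points of the tristetraprolin family and Regnase-1 targets all lie to the right of 0.

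Listed targets of the tristetraprolin family and of Regnase-1 rose in part, and none fell past the test. Of 29 measured targets of the tristetraprolin family, 18 rose in TLR4 null kidneys and 19 in wild type kidneys and none fell, with list medians of 1.03 and 0.83. Of 12 measured Regnase-1 targets, 6 rose in each genotype and none fell, with list medians of 0.84 and 0.69. The 2 lists share 6 genes and together hold 35 measured ones, many of them early-response and inflammatory genes. For both lists none was called between the genotypes in either surgery, where 11 of 29 and 6 of 12 had an unadjusted p under 0.05 in ischemic kidneys (11.4% of all genes), 10 and 5 of them lower in TLR4 null. In sham kidneys it was 4 and 2 (9.35% of all genes), all lower in TLR4 null.

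Nfkbiz, a regulator of NF-kB target genes that stands on both target lists, gave 1147, 1502 and 1588 in TLR4 null ischemic kidneys, against 321, 345 and 361 in TLR4 null sham kidneys. In wild type it gave 1718, 2073 and 1943 in ischemic kidneys, against 378, 454 and 396 in sham kidneys. It rose by 1.99 in TLR4 null (limma adjusted p = 4.58e-08) and 2.18 in wild type kidneys (adjusted p = 2.12e-08), and TLR4 null arrays were below wild type arrays in each surgery without a call (-0.44 in ischemic, adjusted p = 0.129; -0.24 in sham kidneys, adjusted p = 0.576). Plk3, a stress-response kinase, rose by 2.43 and 2.60, and Myc, a growth transcription factor, by 2.55 and 2.56, in TLR4 null and wild type kidneys. Cxcl1, a chemokine that draws neutrophils, rose by 3.91 in TLR4 null and 3.15 in wild type kidneys, and its relative Cxcl2 by 3.09 and 2.96. Zfp36 thus rose in the same ischemic kidneys as 18 (TLR4 null) and 19 (wild type) of the 29 measured targets of its family. The other targets were not called, and 3 of the 29 had a lower ischemic mean in each genotype. The arrays give no rate of decay for any of these transcripts.

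The genes whose centred log2 values over the 12 arrays lay nearest to each regulator are given as a description, with the root mean square difference in log2 units. Nearest to Zfp36 were Mcl1 (0.186), which encodes a survival factor of the Bcl-2 family, Cldn7 (0.201), a tight-junction protein of the distal nephron, and Vasn (0.202). Nearest to Btg1 were Ppp4r2 (0.118), Peak1 (0.121) and Vmp1 (0.122), and nearest to Elavl1 were Rars (0.0636), the arginyl-tRNA synthetase, S100a16 (0.0673) and Rbm12 (0.0677). Zfp36l1 lay nearest to Rpl22l1 (0.0837), Amotl2 (0.0907) and Vezf1 (0.0953), and Hnrnpd to Pcf11 (0.107), a factor of 3′-end formation, Spred1 (0.114) and Wdr1 (0.121). Zfp36l2 lay nearest to Taldo1 (0.0878), Limd1 (0.0960) and Ap3d1 (0.0994), and Zc3h12a to Cox7c (0.123), Prr12 (0.124) and Rnf114 (0.143). Among the 7 regulators the nearest pair was Hnrnpd and Zfp36l1 (0.140) and the farthest was Zc3h12a and Zfp36 (0.940). All arrays share the contrast of ischemic with sham kidneys, so genes with a similar response to surgery lie near each other.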

How the data were processed

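The deposited table gives 1 intensity for each of 45101 probe sets (64 of them controls) on 12 arrays, which the authors derived using MAS5 according to the submitters' processing notes (per the labels, no version or scaling target is stated). Judged by the values, the table is linear and the mean of the middle 96% of probe sets is 250.002 on every array, and that scaling was kept. Groups and replicate numbers were taken from the labels, and no 2 arrays held identical values. Gene names came from the platform annotation, which named 1 gene for 34945 probe sets, several for 932 and none for 9160, and 34741 of the 34945 matched the RefSeq gene table of GRCm38.p6.

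Values were taken as log2(signal + 15). Probe sets brighter than the 40th percentile of the array on 3 or more arrays were tested, and each gene was represented by its brightest probe set, judged on mean log2 values. Genes were fitted with limma 3.58.1 (R 4.3.3; lmFit and a trended eBayes), with 1 mean per group (4 groups) and 8 residual degrees of freedom. The 5 comparisons were two-sided, p-values were adjusted over all genes with the Benjamini-Hochberg method, and genes with an adjusted p under 0.05 were called. All probe sets were fitted in the same way. Errors beside log2 differences are standard errors, with 3 arrays per group. The step was also run on simulated data with known changes in far fewer genes than were called here, and no result rests on that run. Promoter windows and figures were made in Python 3.11.15 with pandas 2.3.3 and matplotlib 3.10.9.

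The members and the gene lists were chosen with earlier results of these data known, and the target and pathway lists were written from general knowledge. The text names every member and its probe sets, up to 3 called genes per pathway list with the smallest p in wild type kidneys, and the 3 genes nearest to each member. Tlr4, S100a8, S100a9, Mmp8, C1qa and the 4 decapping genes called in TLR4 null kidneys, and the counts that go with them, were named outside that rule after their values were seen. The alternatives were quantile normalization, median scaling, pseudocounts of 1 and 60, the filter dropped or set at the 60th percentile, averaged probe sets per gene, no _x_at or _s_at probe sets, eBayes without the trend, only the groups compared, a replicate block and leaving out each array.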

Additional observations from a re-analysis of the deposited data

How the results depend on the processing

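Each value was recomputed under up to 25 alternatives, 12 of which leave out 1 array and 2 of which (the fat score and the other probe set of Zc3h12a) were added after the data were seen. The number of the 7 genes called was 4 to 5 without 1 array and 4 to 5 otherwise in TLR4 null kidneys, and 5 and 5 to 6 in wild type kidneys, where the 6 came with the other probe set of Zc3h12a (0.81, adjusted p = 0.0491, a probe set that passed the filter only through the ischemic arrays; 0.62 in TLR4 null kidneys, and -0.18 between the sham groups). It was 0 for the difference of the responses and for both genotype comparisons under every alternative that gave a value. The number of their probe sets called in TLR4 null kidneys ran from 5 to 9 without 1 array, beside 8 with all. In TLR4 null kidneys the Zfp36l1 call was lost with median scaling (0.37, adjusted p = 0.0535) and the Hnrnpd call with the mean of its probe sets (0.25, adjusted p = 0.161) and without TLR4 null sham replicate 2 (0.40, adjusted p = 0.0538). The mean over probe sets is a different measurement from the brightest one, and the cause of the other losses was not tested.

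Only differences that had not been called changed sign. With the mean of the probe sets, Zfp36l2 stood at 0.21 in TLR4 null and -0.026 in wild type kidneys, 0.24 for the difference of the responses, 0.20 between the ischemic groups and -0.044 between the sham groups, Zc3h12a at 0.12 in TLR4 null and 0.34 in wild type kidneys, Hnrnpd at 0.020 between the sham groups and Btg1 at 0.048 between the ischemic groups. With median scaling, Elavl1 stood at -0.033 for the difference of the responses, and Zfp36l1 at 0.017 and Hnrnpd at 0.0072 between the sham groups. Btg1 between the ischemic groups stood at 0.016 with quantile normalization and at 0.023 with the fat score as a covariate. Without 1 array, the values ran from -0.077 to 0.046 for Zfp36l2 in TLR4 null kidneys, from -0.35 to 0.054 for Zc3h12a in wild type kidneys, and from -0.041 to 0.072 for Elavl1 in the difference of the responses. Between the ischemic groups they ran from -0.21 to 0.13 for Zc3h12a and from -0.092 to 0.034 for Btg1, and between the sham groups from -0.11 to 0.025 for Zfp36l1, -0.026 to 0.18 for Zfp36l2, -0.033 to 0.37 for Zc3h12a and -0.086 to 0.025 for Hnrnpd.

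Median scaling moved the split of all called genes to 1179 higher and 1033 lower in TLR4 null kidneys, beside 1412 and 1676, and to 1289 and 666 in wild type kidneys, beside 1313 and 1501. The replicate numbers do not pair the samples (same-numbered arrays correlated at -0.062 to 0.104 in their deviations from the group means), and with the replicate number as a block 5 genes in each genotype, 8 probe sets in TLR4 null and 7 in wild type kidneys were called. Signal over background limits the dim probe sets, among them the 2 of Zc3h12a, 1451034_at of Zfp36l2 and 1442018_at of Btg1, and the 4 probe sets under the filter.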
